A study of Mus musculus with 2 samples.

Results

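The peaks described here are those that methylated RNA immunoprecipitation sequencing placed in genes for long non-coding RNAs (lncRNAs) in the mouse uterus. They were chosen by position alone. A peak was taken when its summit lay on an autosome, inside the annotated span of 1 gene and no other, with that gene listed as an lncRNA. Peaks of Malat1, Neat1, Meg3, Rian, Kcnq1ot1 and H19 were left out. Of 26584 peaks in all, 681 (2.56%, 2.38 to 2.76) met the rule. They lay in 465 lncRNA genes on 19 autosomes. Before the last steps 706 summits lay in 1 lncRNA gene only. Of these, 15 were on X or Y and 10 belonged to the genes left out by name, 5 of them to Malat1, 2 to Meg3, 2 to Neat1 and 1 to Rian.

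RNA came from the uterus of wild-type females aged 6 to 8 weeks, mated with fertile males and killed on gestational day 4, where day 1 is the day of the vaginal plug. Polyadenylated RNA was either immunoprecipitated with an antibody against N6-methyladenosine (m6A; IP, 1 sample) or left unselected (input, 1 sample), and the labels give the cell type of both as mixed. There was no replicate and no other day or genotype, so no p-value was computed, and the 1 peak list analysed here was deposited with the IP sample. The name of every peak begins with D8NegIP-Posinput, whose day and terms do not match the labelled day 4 sample, so it is unsettled from which libraries the list was made.

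m6A is a methyl group that a nuclear enzyme complex adds to adenosines while RNA is being transcribed, mostly in the sequence context DRACH, of which GGACT in DNA letters is a well-known form. Reader proteins bind the mark and influence splicing, export, translation and decay. In messenger RNA the mark is concentrated in long internal exons and around the stop codon. lncRNAs have no stop codon of a long reading frame, but some of them, made and processed by the same machinery as messenger RNA, are well-studied carriers of m6A. Many lncRNA genes start beside a protein-coding gene and run the other way, and some are the precursors of microRNAs (miRNAs).

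The sequences below come from lncRNA genes with a peak. The first set is mature miRNAs encoded inside lncRNA genes with a peak. They are shown because the summits in A330023F24Rik and E130102H24Rik lay 122 to 364 bases from a miRNA, and because 2 pairs of them share a seed. Sequences are RefSeq's on GRCm38.p6, written 5′ to 3′, with the seed (bases 2 to 8) in capitals.
miR-29b-3p: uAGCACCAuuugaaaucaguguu
miR-29c-3p: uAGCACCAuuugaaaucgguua
miR-15a-5p: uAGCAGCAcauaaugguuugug
miR-16-5p: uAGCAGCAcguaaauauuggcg
miR-101a-3p: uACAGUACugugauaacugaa
miR-125b-5p: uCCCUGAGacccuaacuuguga
miR-100-5p: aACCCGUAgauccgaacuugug
miR-22-3p: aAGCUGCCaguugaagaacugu
The host of miR-29b-2 and miR-29c is A330023F24Rik, that of miR-15a and miR-16-1 is Dleu2, and that of miR-101a is E130102H24Rik. Mir100hg holds miR-100, let-7a-2 and miR-125b-1, and Mir22hg holds miR-22.

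The second set is the sequence around the summits of lncRNA peaks that fell in a promoter window, which runs from 250 bases before to 50 after the start of a gene. They are shown because a summit there lies at a start site, most often that of the neighbouring gene. The stretches reach up to 50 bases to each side of the summit as far as the window does, from RefSeq's promoters on GRCm38.p6. They are written on the strand of the lncRNA, except at Sp3os, whose strand was not used here and which is written on the strand of Sp3. Capitals mark GGACT. In RefSeq's window for Gm15411 the summit lies 44167 bp from the start of the gene's span as the gene table gives it, so its own start is an internal one.
Gm15411 (own start), chr5:148971706-148971763: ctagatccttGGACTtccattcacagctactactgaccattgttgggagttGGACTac
Gm7160 (start of Zcchc2), chr1:105990156-105990222: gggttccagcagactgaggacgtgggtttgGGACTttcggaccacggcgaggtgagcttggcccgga
A930005H10Rik (start of Dph5), chr3:115887933-115888009: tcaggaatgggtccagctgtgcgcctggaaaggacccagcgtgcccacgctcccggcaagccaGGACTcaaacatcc
Ino80dos (own start), chr1:63114490-63114589: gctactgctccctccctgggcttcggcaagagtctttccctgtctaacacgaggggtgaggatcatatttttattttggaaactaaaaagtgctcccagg
Sp3os (start of Sp3), chr2:72980498-72980598: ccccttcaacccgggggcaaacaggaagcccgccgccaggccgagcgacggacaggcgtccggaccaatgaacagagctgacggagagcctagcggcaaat
Of 15 promoter windows that held the summit of an lncRNA peak, 4 belonged to the lncRNA itself and 11 to a neighbour. Over the whole window, GGACT on either strand was found in 7 of the 15 (46.7%). The same letters are in 45.5% of 27025 promoter windows of the same length and in 43.4% of 9287 lncRNA promoters, so the share was close to that of promoters at large.

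lncRNA genes rarely had a peak. Of 12402 autosomal lncRNA genes, 465 had at least 1 (3.75%, 3.43 to 4.10), against 8696 of 20665 autosomal protein-coding genes (42.1%, 41.4 to 42.8). Pseudogenes were close to lncRNA genes, with 388 of 9319 (4.16%, 3.78 to 4.59). Shares are given with 95% Wilson intervals, for which genes and peaks were taken as independent and which cover counting error only.

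The gap was there at every gene length, as the bar plot of genes with a peak shows. Among genes with a span under 5 kb, 90 of 4123 lncRNA genes (2.18%) and 851 of 4569 protein-coding genes (18.6%) had a peak. Between 20 and 100 kb the shares were 5.61% and 51.2%. At 100 kb or more, 50 of 269 lncRNA genes (18.6%, 14.4 to 23.7) had a peak, a share equal to that of the shortest protein-coding genes, against 66.4% of protein-coding genes of that length. Spans include introns, and neither exon lengths nor expression were analysed here, so their part in these shares was not tested.

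Curated lncRNA genes had a peak more often than predicted ones. Genes with a curated transcript had a peak in 247 of 3215 cases (7.68%, 6.81 to 8.65). Genes known only from model transcripts had one in 218 of 9187 cases (2.37%, 2.08 to 2.70). The order was the same in each class of span. Under 5 kb the shares were 6.00% (4.71 to 7.61) and 0.906% (0.628 to 1.31), and at 100 kb or more 27.5% (20 to 36.6) and 12.5% (8.24 to 18.5). Once a gene had a peak, the values of both kinds lay close together. The 379 peaks of curated genes had a median fold enrichment of 6.30 and the 302 of model-only genes 5.96, at median backgrounds of 0.769 and 0.492 fragments.

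**Figure D1:**
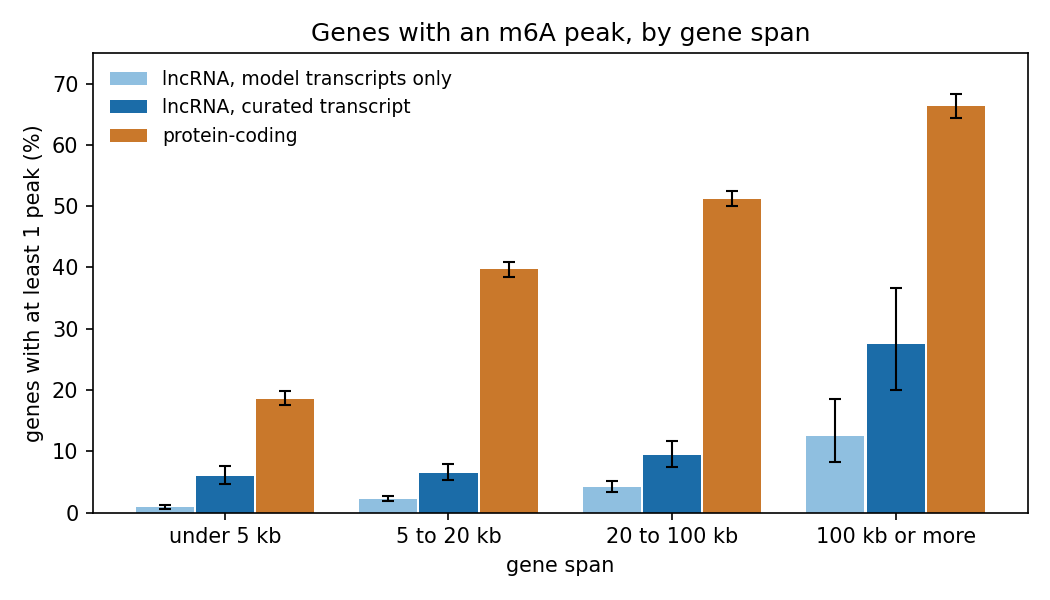
The share of genes with at least 1 peak (y axis, percent) is plotted by gene span (x axis, 4 classes) for lncRNA genes with model transcripts only, lncRNA genes with a curated transcript and protein-coding genes. Bars show the share and error bars the 95% Wilson interval; in each class of span the order is model-only, curated, protein-coding, from 0.906%, 6.00% and 18.6% under 5 kb to 12.5%, 27.5% and 66.4% at 100 kb or more.

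A summit often could not be given to an lncRNA gene because another gene shares the place. Of 2057 summits in the spans of several genes, 1017 lay in an autosomal lncRNA gene, and 946 lay in both an lncRNA gene and a protein-coding gene. Counting these for each lncRNA gene raised the number of lncRNA genes with a peak from 465 to 1071 (8.64%). The library kit keeps strand, but the deposited peaks carry none, so the transcript that gave such a peak cannot be told apart from its neighbour.

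The enrichment of lncRNA peaks was modest. Fold enrichment, the peak caller's own value, is the number of IP fragments over the summit (the pileup) plus 1, divided by the background expected there plus 1. Its median over the 681 peaks was 6.16 (quartiles 5.06 and 8.41, range 2.68 to 41.8), against 7.14 for all peaks and 7.31 for the 21038 peaks of protein-coding genes. The 2210 peaks outside every gene span had 6.34 and the 521 in pseudogenes 7.38. A fold enrichment of at least 10 was reached by 112 lncRNA peaks (16.4%, 13.9 to 19.4), against 25.7% of all peaks. A −log10 q of at least 5 was reached by 475 (69.8%, 66.2 to 73.1), against 85.0% of all peaks. These 2 shares were much the same outside every gene span, at 16.2% and 70.0%. In pseudogenes they were higher, at 27.1% and 83.1%.

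lncRNA peaks rested on few fragments. Their median pileup was 10 (quartiles 7 and 18, range 3 to 142), against 20 in protein-coding genes, and 319 of them (46.8%) had fewer than 10, against 20.9% of all peaks. The median background was 0.577 fragments, scaled to the IP library, against 1.65 in protein-coding genes. For 143 lncRNA peaks (21.0%) the background was under 0.2, against 4.62% in protein-coding genes. They were also narrower, with a median width of 281 bp against 335 bp. Peaks outside every gene span went further, with a median pileup of 8, a median background of 0.384 and a median width of 241 bp. Of them 57.7% had a pileup under 10. Pseudogene peaks lay between lncRNA and protein-coding peaks, with medians of 14, 0.769 and 316 bp. The 10 peaks of the lncRNA genes left out by name, nuclear or imprinted RNAs, stood at the other end, with a median background of 16.9 and a median fold enrichment of 4.79.

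The lower enrichment of lncRNA peaks was also seen at like background, but not at like pileup from 10 fragments up or with another pseudocount. Their medians were lower in all 5 classes of background, with 5.87 against 6.40 below 0.5 fragments, 6.24 against 7.61 from 0.5 to 1, and 6.58 against 7.59 from 2 to 4. In classes of pileup their median was lower below 10 fragments, at 5.11 against 5.29. It was higher from 10 to 20 (7.33 against 6.65), from 20 to 40 (9.06 against 8.39) and from 40 up (13.1 against 12.4). With 0.1 in place of 1 added to pileup and background, the medians over all peaks were 14.6 for lncRNA and 12.1 for protein-coding peaks, so the lower median of lncRNA peaks holds for the deposited scale only.

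**Figure D2:**
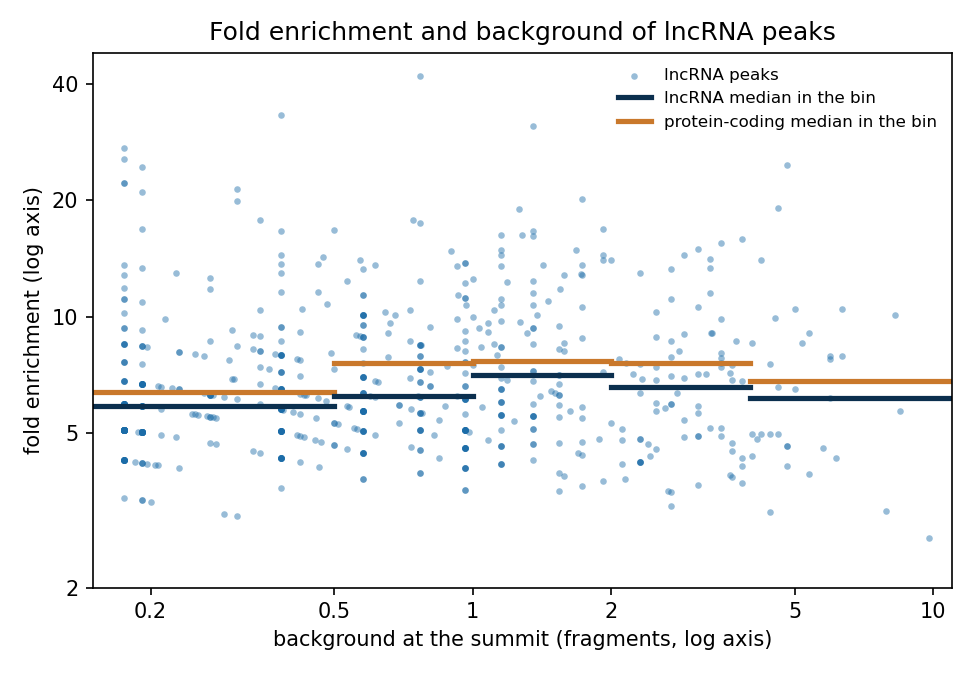
Each point is 1 of the 681 lncRNA peaks, with the background at its summit (x axis, fragments, log scale) and its fold enrichment (y axis, log scale). Dark lines are the lncRNA medians and orange lines the protein-coding medians within 5 classes of background; the lncRNA line lies below the other in each class, at 5.87 against 6.40 in the lowest and 6.18 against 6.81 in the highest.

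The lncRNA genes with the highest enrichments were mostly known by clone or prediction names, as were lncRNA genes with a peak in general. Of the 20 genes that lead by fold enrichment, 18 have such names, beside 405 of all 465. The pileups of the 20 ran from 19 to 142 fragments. Gm30821 had 41.8 (32.9 to 52.5) at chr18:68691945-68692294, from 73 IP fragments over a background of 0.769. Intervals of fold enrichments are exact 95% Poisson intervals of the pileup with the background taken as known. Gm40841 followed with 33.2 (24.4 to 44.2) at chr13:28418908-28419660, and Gm43305 with 31.1 (24.4 to 39.1) at chr14:54295213-54295799. The intervals of these 3 overlap, so their order was not resolved.

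Next came 2700089I24Rik, at 27.2 (18.8 to 38.3), whose nearest protein-coding gene is Emx2, a homeobox gene of the developing reproductive tract, 65670 bp away. B230209E15Rik had 25.5 (17.4 to 36.3). This peak and that of 2700089I24Rik stood on a background of 0.175, the lowest of any lncRNA peak. Many other lncRNA peaks had the same value, among them those of the leaders C730034F03Rik and 4930440I19Rik. In 4930578N18Rik, 147894 bp from Nrip1, a nuclear receptor corepressor gene, a peak of 4120 bp at chr16:76137959-76142078 had 24.6 (20.8 to 29.0). It was the widest lncRNA peak, with the most fragments (142) and the highest −log10 q (146). It also had a background of 4.81, while 11 of the 20 leaders had a background under 0.5. The plot of the 20 highest genes shows how wide the intervals of the leaders on low backgrounds are.

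The remaining leaders included C330020E22Rik at 20.1 (15.2 to 26.2), 1700030F04Rik at 19.1 (15.6 to 23.0) from 106 fragments, and C630043F03Rik at 19 (13.8 to 25.5), 451 bp from the corepressor gene Tle1. Ggnbp2os had 17.8 (12.2 to 25.2) and Gm16136, 12 bp from the epithelial transcription factor gene Grhl2, 17.5 (12.0 to 24.8). Dubr, known from mouse muscle cells as a regulator of myoblast differentiation, had 16.8 (12.5 to 22.1). Gm52718, C730034F03Rik, 4930440I19Rik, Gm5113, Gm19951, Gm52694, Gm36876 and Gm35974 lay between 16.8 and 24.3. Of the 20 leaders, 13 were more than 20 kb from a protein-coding gene, while 57.1% of all lncRNA peaks were within that distance. A fold enrichment of at least 20 was reached by 12 lncRNA peaks (1.76%) and by 662 of all peaks (2.49%).

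**Figure D3:**
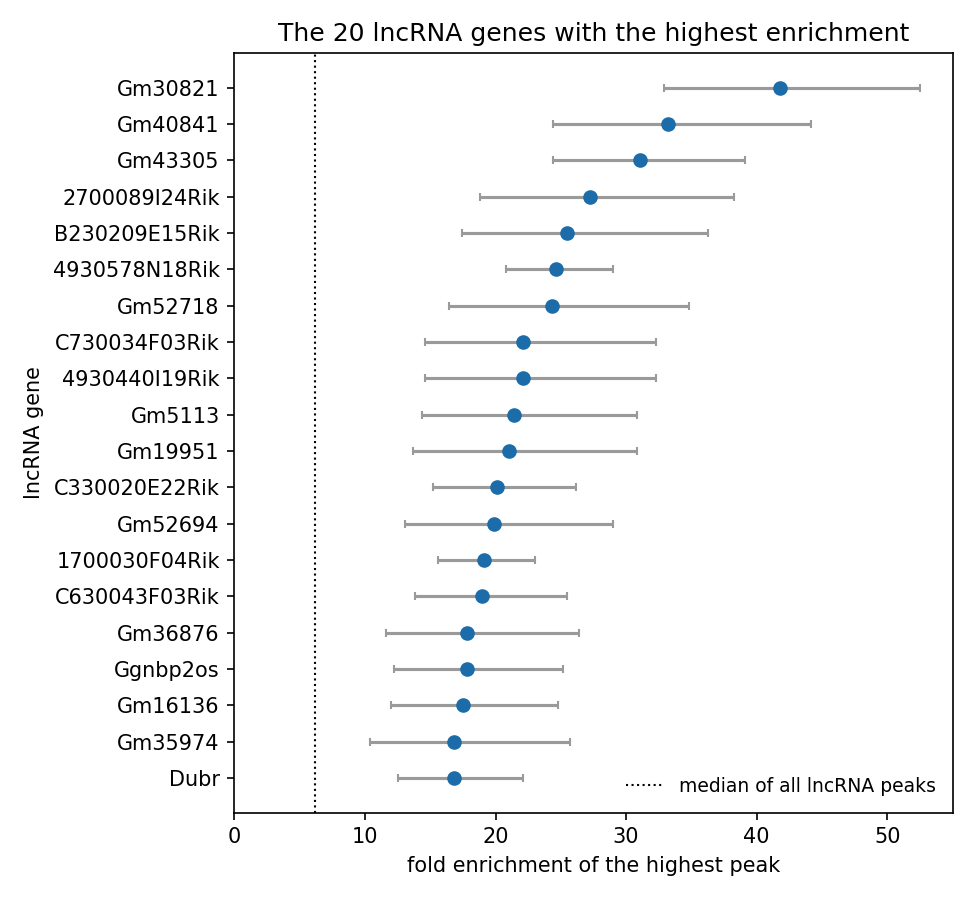
The highest fold enrichment (x axis) of the 20 leading lncRNA genes (y axis) is shown with exact 95% Poisson intervals of the pileup; the dotted line is the median of all lncRNA peaks, 6.16. Gm30821 leads at 41.8 and Dubr closes the 20 at 16.8; all 20 intervals lie above the dotted line.

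By −log10 q, Oip5os1 and E430024I08Rik were among those that joined the leaders. Oip5os1, known as Cyrano, directs the destruction of miR-7 in mouse. It had 2 peaks, 16.3 (11.5 to 22.3) from 36 fragments and 15.9 (12.6 to 19.8) from 76, the latter at chr2:119599453-119600428. Its partner by name, Oip5, had no peak of its own. E430024I08Rik had 14.0 (11 to 17.5) over 2743 bp. Also among the 10 widest peaks were those of B230354K17Rik, with 7.40 (5.13 to 10.4) over 1827 bp, AI506816, with 8.07 (5.69 to 11.1) over 1681 bp, and Gm36445, with 7.62 (5.32 to 10.6) over 1459 bp. The enrichments of B230354K17Rik, AI506816 and Gm36445 were thus not far above the median of 6.16. Others of the 10 widest were higher, up to 24.6 in 4930578N18Rik and 16.8 in Dubr.

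Most lncRNA genes with a peak had a single one. This held for 354 of 465 (76.1%), against 42.7% of protein-coding genes with a peak. From 2 to 4 peaks were found in 103 (22.2%, against 46.8%), and 5 or more in 8 (1.72%, against 10.5%). The gene with the most was Airn, an imprinted lncRNA that starts inside Igf2r, runs opposite to it and silences it on the paternal chromosome. Airn held 20 peaks, 2.94% of all those described here, and 4 further summits in its span were shared with another gene and not counted.

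The Airn peaks were of moderate enrichment. Their fold enrichments ran from 3.90 to 11.5 with a median of 7.0, and their pileups from 15 to 54 fragments, over a median background of 3.88. Their summits lay between 28732 and 88742 bp from the start of a span of 118574 bp, with gaps of 396 to 14789 bp (median 1781). The highest, 11.5 (8.53 to 15.1), was at chr17:12826828-12827904. None had a pileup under 10, where 46.8% of all lncRNA peaks did. Another broad one, at chr17:12802118-12804267, had 7.90 (5.97 to 10.3) from 54 fragments.

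Other lncRNA genes with several peaks differed in how their values were spread. Wt1os, which lies beside Wt1, a transcription factor gene of kidney and gonad, had 7 peaks, of 13.0 (9.46 to 17.5) at chr2:105122105-105122477 and of 3.82 to 6.95 elsewhere. Gm29683, 43197 bp from Nr2f2, which encodes COUP-TFII of the uterine stroma, had 6. Of these, 13.6 and 13.3 were at summits 70856 and 63992 bp from its start, and a site between them had 3.87. In 4732471J01Rik, with 9 peaks, 7 lay between 165395 and 173605 bp from the start of a 190 kb span, all on 5 to 16 fragments. Gm41804, also with low pileups (5 to 14 fragments), had 7 peaks of 4.59 to 7.65. Gm15411 had 6, of 5.32 to 13.6, one of them 224 bp from the start of its span. Gm34782 and A730017L22Rik had 5 each, with highest values of 11.5 and 10.3. C330020E22Rik and Gm1976 had 4 each, with 20.1 and 14.1.

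Among lncRNAs with a described role, 10 of 46 (21.7%, 12.3 to 35.6) had a peak, against 3.75% of all autosomal lncRNA genes and 7.68% of those with a curated transcript. Expression, by which such genes may differ from the rest, was not analysed here. This and the other lists were chosen with earlier results of these data known, so their shares are descriptive only. Wt1os, Oip5os1, Hoxa11os and Dlx6os1 are counted again below among genes named for lying opposite another gene. Besides Airn, Wt1os and Oip5os1, Tug1, which is needed for male fertility in mouse, had 4 peaks along its length. They had 7.90, 10.5, 4.37 and 9.93 from 57, 76, 21 and 54 fragments, at 2004, 3470, 6014 and 8754 bp from its start. The highest had an interval of 8.29 to 13.1 at chr11:3644825-3645650. The site of 4.37 was the lowest, and each of the other 3 had at least 54 fragments.

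Fendrr, which is needed for heart and body wall development in mouse, had 3 peaks of 5.10, 6.93 and 6.30, on 9 to 15 fragments. Lncpint, induced by p53, had 4, the highest at 7.85 (5.50 to 10.9). Hoxa11os, opposite the uterine patterning gene Hoxa11, had 3, of 4.99, 5.96 and 5.71, on 27, 21 and 53 fragments. Pvt1, the neighbour of Myc, had 4.51 (2.84 to 6.85), Cerox1, a regulator of mitochondrial complex I genes, 5.87 (2.69 to 11.8) from 6 fragments, and Dlx6os1 5.38 (2.91 to 9.27). Norad, Hoxaas3, Hoxb3os and Peg13 had no peak of their own but shared a summit with another gene. Hotair, Hottip, Gas5, Miat, Crnde and Rmst were among those with neither. Chaserr, which restrains its neighbour Chd2 in mouse, reached 14.8 in 3 peaks and is named after its value was seen.

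Hosts of small nucleolar RNAs carry the small RNAs in their introns, and their spliced RNA is in many cases short-lived. Of 21, 2 had a peak (9.52%, 2.65 to 28.9), an interval that includes the 3.75% of all autosomal lncRNA genes, and Gas5, Dancr, Zfas1, Snhg1 and 15 more had none. Snhg18 had 9.09 (6.92 to 11.7) from 57 fragments at chr15:32241466-32241908 and 6.35 near its start. Snhg14, a very long imprinted transcript that opposes Ube3a in neurons, had 1 peak of 12.4 (7.91 to 18.7) in a span of 1177441 bp.

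On a list of miRNA hosts, 6 of 20 genes had a peak (30.0%, 14.5 to 51.9), against 3.75% of all autosomal lncRNA genes. The list holds symbols of the form Mir...hg. Dnm3os, Mirg, Dleu2, Carmn, Mirt1 and Mirt2 were added to it by hand, and their standing as hosts was not checked. Of the 6 with a peak, Mir100hg, Mir99ahg and Mir670hg span 238660, 229101 and 104468 bp. Dleu2, Carmn and Mir22hg are shorter, at 79538, 19661 and 5152 bp. Among all lncRNA genes of 100 kb or more 18.6% had a peak, and the part of span in the contrast was not tested. The 8 peaks of the miRNA hosts had a median fold enrichment of 4.82, against 6.16 for all lncRNA peaks. Mir99ahg had 9.41 (5.61 to 14.9) and Mir22hg 9.15 (5.62 to 14.2). Mir100hg had 3 peaks, of 4.23, 4.70 and 6.18, Dleu2 had 4.94 (2.44 to 9.20) and Mir670hg 4.33 (1.89 to 9.15). Carmn, a smooth muscle lncRNA, had the lowest enrichment of all 681 peaks, 2.68 (1.81 to 3.84), on the highest background, 9.80, with 28 fragments. With −log10 q of at least 5, 3 of the 6 were left.

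By position in the RefSeq miRNA set used here, 8 lncRNA genes with a peak held 19 miRNA genes with 36 mature miRNA entries. That set gave no miRNA for Mir99ahg or Carmn, both on the host list with a peak, so the counts cover the set only. The distance from peak to miRNA varied widely. The summit of A330023F24Rik lay between both of its miRNAs, 324 bp from miR-29b-3p (chr1:195037091-195037113) and 184 bp from miR-29c-3p (chr1:195037600-195037621), with a fold enrichment of 4.23. That of E130102H24Rik, at 5.81, was 122 bp downstream of miR-101a-3p (chr4:101346957-101346977). In Mir100hg a summit was 941 bp upstream of miR-125b-5p (chr9:41581940-41581961), while the nearest to miR-100-5p was 29919 bp away. In Mir22hg it was 1783 bp downstream of miR-22-3p (chr11:75463772-75463793). In Dleu2 it was 17178 bp upstream of miR-15a-5p (chr14:61632075-61632096). The miR-29 pair shares the seed AGCACCA and the miR-15a and miR-16 pair AGCAGCA, as the sequences above show. In A230057D06Rik, whose 2 peaks had 5.03 and 5.09, 4 miRNAs of the miR-344 family share the seed GUCAGGC. A peak spans far more of the genome than a mature miRNA and says nothing of its level.

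lncRNA genes whose symbols end in os or as, with or without a number, were taken as named for lying opposite another gene. The rule also takes in Gas5, which is not so named and had no peak. Of the genes on this list, 23 of 215 (10.7%, 7.23 to 15.5) had a peak, against 3.75% of all autosomal lncRNA genes. A further 35 had only a summit shared with another gene. The share among all lncRNA genes with a curated transcript, 7.68%, is inside that interval. The list was not matched for curation or span. A partner was found in the gene table for 22 of the 23, and 13 of the partners had a peak of their own. In 11 of these 13 pairs the partner's highest fold enrichment was above that of the lncRNA. The same order holds for genes at large, with a median highest peak of 9.29 in protein-coding and 6.5 in lncRNA genes. Numbers of peaks differed within pairs and were not matched. Among those 11 pairs, the interval of the lncRNA lay below the partner's value in Foxl2os, Junos, Fzd10os, Ino80dos and Brip1os and included it in the others. Foxl2os had 10.5 (8.09 to 13.4) from 62 fragments beside 32.7 in Foxl2, the ovarian transcription factor gene. Junos had 6.25 (3.20 to 11.3) beside 19.6 in Jun, an AP-1 subunit gene. Fzd10os had 10.6 (7.18 to 15.2) beside 19.7 in Fzd10, a Wnt receptor gene, and Ino80dos 10 (6.22 to 15.3) beside 20.6 in Ino80d, a chromatin remodelling subunit gene.

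Wt1os, at 13.0 against 7.69 in Wt1, and Cep83os, at 6.98 against 5.86, were the pairs in the other direction, and the interval of Cep83os (3.68 to 12.3) includes the partner's value. Sp3os had 9.38 beside 12.4 in Sp3, Brip1os 9.06 beside 16.2 in Brip1, and Zmiz1os1 9.14 beside 10.2 in Zmiz1. Ggnbp2os, with 17.8, Oip5os1, Zfp335os, Hnf1aos1, Hoxa11os, Hoxb5os, Dlx6os1, Gad1os and Foxd2os had a peak while the partner had none of its own. For all of these except Oip5os1 and Foxd2os the spans of both genes overlap. A summit in the overlap counts for neither gene, so a partner without a peak of its own may still share one. Stamos, Atad3aos, Map2k3os and Lppos lay between 5.11 and 6.71, each below its partner. Hoxaas2, at 4.5, had no partner in the table.

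Genes with clone or prediction names made up most of the set, with 405 of 11928 (3.40%, 3.09 to 3.74) carrying 559 of the 681 peaks. A few genes that the table lists as lncRNA have names of another kind. Trmt61b, named for a tRNA methyltransferase, had 1 peak of 10.1 (5.96 to 16.3), and Zfp783, a zinc finger name, had 3, up to 13.5. They were kept, since the rule follows the table, and are named after their values were seen.

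lncRNA peaks lay close to protein-coding genes about as often as the same lncRNA genes do. The median distance from a summit to the nearest protein-coding span was 13645 bp, and 105 summits were over 100 kb away. Within 5 kb lay 206 of 681 (30.2%, 26.9 to 33.8). Positions taken every 100 bp along the parts of the same lncRNA genes free of other genes, weighted by the peaks of each gene, gave 29.4%. Within 20 kb the shares were 57.1% and 57.9%. Within 1 kb the peaks were more frequent, 99 (14.5%, 12.1 to 17.4) against 9.11% of positions. The lncRNA genes with a peak were themselves somewhat nearer to protein-coding genes than lncRNA genes at large, of whose positions, each gene counted alike, 23.0% were within 5 kb and 46.1% within 20 kb.

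Enrichment was alike near and far. The 206 peaks within 5 kb had a median of 6.21 (quartiles 5.06 and 8.25) and the 475 farther ones 6.12 (5.06 and 8.45). A fold enrichment of at least 10 was reached by 16.5% and 16.4%. Of the protein-coding genes nearest to the peaks within 5 kb, 127 of 173 (73.4%, 66.4 to 79.4) had a peak of their own, and of those nearest to farther peaks 198 of 324 (61.1%, 55.7 to 66.3), against 42.1% of all autosomal protein-coding genes.

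Of the peaks within 5 kb, 129 had a known strand for both genes. In 95 (73.6%, 65.4 to 80.5) the summit lay upstream of the protein-coding gene and the lncRNA was on the opposite strand. This takes in divergent pairs but also lncRNAs that overlap the protein-coding gene, such as Airn and Ggnbp2os, which were not set apart. Positions of the same genes gave 74.4% for the same arrangement, inside the interval of the peaks. Peaks downstream on the opposite strand numbered 23 (17.8%, against 15% of positions), and those on the same strand 9 upstream and 2 downstream. The 95 upstream peaks on the opposite strand had a median fold enrichment of 6.24, from 3.10 to 19.

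Along the gene, lncRNA peaks were more frequent at both ends than in the part next to the first. Strand was known for 541 peaks in 360 genes, and each span was cut into 5 equal parts from its 5′ end. These held 22.6%, 14.2%, 18.3%, 18.3% and 26.6% of summits. Positions free of other genes gave 19.2% in part 1, 20.5% in part 2 and 19.4% in part 5. The intervals of part 5, 23.1 to 30.5, and of part 2, 11.5 to 17.4, leave out the share of positions, and that of part 1, 19.2 to 26.3, reaches it. In protein-coding genes 43.4% of 16434 summits were in part 5, so the skew of lncRNA peaks to the 3′ end was the smaller one. The fold enrichment of lncRNA peaks was not higher there: the medians were 6.5 in part 1, 7.03 in part 2 and 5.96 in part 5. Within 1 kb of either end of the span lay 187 of the 681 summits (27.5%), and 113 (16.6%) lay more than 20 kb from both ends.

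**Figure D4:**
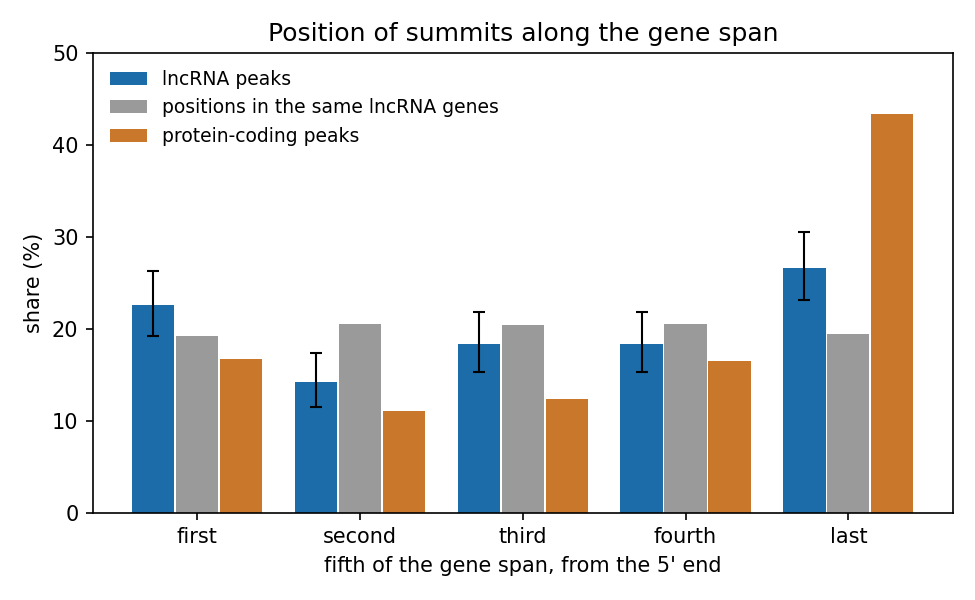
The share of summits (y axis, percent) in each of 5 equal parts of the gene span from the 5′ end (x axis) is shown for 541 lncRNA peaks, with 95% Wilson intervals, for positions in the same lncRNA genes free of other genes, and for 16434 protein-coding peaks. lncRNA peaks hold 26.6% in the last part, above 19.4% of positions and below 43.4% of protein-coding peaks.

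lncRNA peaks were spread over the autosomes with shares of 2.06% to 8.96%. Chromosome 17 held 61 (8.96%, against 4.80% of all peaks), 20 of them in Airn. Chromosome 6 held 49 (7.20%, against 5.03%) and chromosome 8 held 22 (3.23%, against 5.38%). Chromosome 9 held 14 (2.06%, against 5.66%), in 9 genes.

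The labelled tissue was checked with protein-coding markers. Of all autosomal protein-coding genes, 42.1% had a peak. Of 10 uterine genes, 9 (90.0%, 59.6 to 98.2) had a peak of their own, with 29.5 in Hand2 and 13.8 in Pgr, and Hoxa11 had a summit only where its span is shared. Of 8 markers of other tissues, 5 (62.5%, 30.6 to 86.3) had one too, Alb, Apoa1, Ttr, Adipoq and Ovgp1, at fold enrichments of 7.91 to 25.2 and backgrounds of 0.175 to 0.961, while Hba-a1, Hbb-bs and Pou5f1 had none. What part RNA of other tissues had in the lncRNA peaks was not tested.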

How the data were processed

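The assay was m6A RNA immunoprecipitation sequencing of polyA RNA, 1 IP and 1 input sample. Per the submitters' processing notes, the tools were HISAT2 2.2.1 and MACS3 3.0.0a7, with mm10 as the build. How they were set, whether the input served as control and whether samples were pooled is not given in the sources used here. In 1 peak list the authors deposited positions counted from 0, a score, a fold enrichment (a ratio), and the p-value and q-value as −log10. The lowest deposited −log10 q, 1.31, is that of a cutoff at 0.05. All are the peak caller's values, and they serve here to rank, filter and describe.

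Coordinates are printed counting from 1. The deposited fold enrichment and −log10 p-value were solved for the pileup and background of a summit under a Poisson model with a pseudocount of 1. Whole pileups, to a tolerance of 0.05 of a step, resulted for 99.85% of peaks (39 did not, 2 of them described here). The solver, tested on 1928 simulated peaks, recovered 100% of them. Library depth is unknown, so the pileups set the precision.

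Gene spans, biotypes and RefSeq sequences are of GRCm38.p6, the assembly of mm10, from tables of 49997 genes without exons. Strand came from the promoter table. Named genes are list members with a peak (clone-named and predicted genes only by the other rules, coding markers as examples), the 20 with the highest fold enrichment (−log10 q of at least 5 required), and the 10 with the most peaks, the highest −log10 q or the widest peaks. Of the genes it picks, 1 is not reported here. Members and lists were chosen with earlier results of these data known. Positions every 100 bp in the same spans, outside other genes, served as the comparison for places. Alternatives were a −log10 q of at least 5, a fold enrichment of at least 4, a pileup of at least 10, any or 50% overlap with the span, X and Y kept, the names left out kept, shared summits counted, a pseudocount of 0.1, the highest peak per gene, and 1 and 20 kb as near. The software was Python 3.11.15 with pandas 2.3.3, numpy 2.4.6, matplotlib 3.10.9 and scipy 1.17.1.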

Additional observations from a re-analysis of the deposited data

How the results depend on the processing

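Of 106 recomputed values, 89 stayed within 1.5 times the count or within the counting interval of the value reported, and 17 moved. With −log10 q of at least 5, lncRNA peaks were 2.10% of peaks, 2.67% of lncRNA genes had one, their median fold enrichment was 7.25 (7.88 in protein-coding genes) and 3 miRNA hosts kept a peak. With a pileup of at least 10, 362 peaks were left (1.72%), in 235 genes (1.89%), with a median of 8.03 (8.00 in protein-coding genes) and 63 genes with several peaks. Counting shared summits gave 1071 genes (8.64%) and 58 genes named for the opposite strand, the latter tried after seeing the data. The median was 14.6 with a pseudocount of 0.1 (12.1 in protein-coding genes) and 6.5 over the highest peak of each gene (9.29). The share near a protein-coding gene was 14.5% at 1 kb and 57.1% at 20 kb. Leaving out Airn, tried after seeing the data, moved no result. No paired analysis was possible because there is 1 sample of each kind and 1 peak list. Few fragments under most peaks limit every order of single peaks. The share of peaks with DRACH, and its windows of other widths, was not run, and exons were not analysed here.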
